A study of Caenorhabditis elegans with 12 samples.

Results

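Insulin-like signalling in *Caenorhabditis elegans* runs from the cell surface to a single FOXO transcription factor. Insulin-like peptides bind the receptor DAF-2, which recruits a class I PI3 kinase made of the catalytic subunit AGE-1 and the adaptor subunit AAP-1. The lipid product of the kinase is removed by the phosphatase DAF-18 and activates the kinases PDK-1, AKT-1, AKT-2 and SGK-1, which phosphorylate DAF-16 and hold it in the cytoplasm, and IST-1 is an insulin receptor substrate homologue. The pathway is best known in this nematode for dauer formation, stress resistance and the long life of animals with reduced signalling, and most of its regulation acts on protein phosphorylation and location, which RNA levels do not show.

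The genes were chosen by name, as a list of 10 components from the receptor to *daf-16*, with earlier results of these data known. Of these, 4 were present in the per-library tables (*daf-2*, *aap-1*, *akt-1* and *daf-16*) among 5272 genes, and 6 were not analysed here (*age-1*, *daf-18*, *pdk-1*, *akt-2*, *sgk-1* and *ist-1*). RNAseq had been carried out on whole nematodes at day 6, fed *E. coli* OP50-1, with 4 libraries in each of 3 groups. WT nematodes were the Bristol N2 strain without compound. The FW1256 group was the same strain given 500 µM FW1256, a compound that releases H2S, from the L1 larval stage onwards. The third group was *eat-2* mutants (strain DA1116) without compound, which pump food poorly and serve as a genetic model of caloric restriction, being a single strain in which lower food intake and any other effect of the mutation cannot be told apart. The labels do not say whether the libraries of a group came from separate cultures, so the p-values measure the spread between these libraries, which may be technical. RNA of *eat-2* itself was not analysed here.

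Each library held between 14769332 and 19199982 estimated counts over the genes of its table. Levels are given in CPM, the library's counts scaled to a fixed total of these genes after TMM normalization, and differences as log2 fold changes, with positive values where the first-named group was higher. A gene was called changed at an adjusted p under 0.05 in edgeR's quasi-likelihood test over all genes tested. Whole nematodes hold many tissues, so fewer cells of a type and less RNA per cell cannot be told apart. Markers of intestine (*vit-2*), body wall muscle (*unc-54*, *unc-15*), neurons (*unc-64*, *egl-21*), hypodermis (*rol-6*, *bli-1*), germline and oocytes were all detected in each group.

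In the WBcel235 assembly, *daf-2* lies on the minus strand of chromosome III from 2994514 to 3040846, with 7 annotated transcripts. The single-transcript gene *aap-1* lies on the plus strand of chromosome I from 5107843 to 5110183, and its exons share 136 bp with the opposite-strand gene Y110A7A.21, which was not analysed here. The gene *akt-1* occupies 10248905 to 10252845 on the plus strand of chromosome V and has 3 transcripts. At its end it shares 8 bp with exons of *rop-1*, the nematode Ro ribonucleoprotein gene on the opposite strand, which fell with FW1256 (log2 fold change -0.46, adjusted p = 4.73e-05) and rose in *eat-2* mutants (0.16, adjusted p = 0.0176). On the plus strand of chromosome I, *daf-16* extends from 10750498 to 10776703 with 11 transcripts, and 84 bp of its exons lie opposite the non-coding RNA H36N01.5. Whether counting used strand is not given in the sources used here, so reads in these shared stretches cannot be assigned with certainty.

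The deposited tables disagreed on the level of *daf-16*. Its mean was 1026 estimated counts over the WT and *eat-2* libraries, which is 12% of the authors' own mean for the same comparison (8347). The matching share was 66.7% for *daf-2*, 101% for *aap-1* and 104% for *akt-1*, against a median of 97.5% over 3470 genes, of which 11.6% were under 20%. In the authors' table for FW1256 against WT, the mean was 1269 for *daf-16* and 3363 for *daf-2*, near the per-library counts and 15.2% and 65% of the means in the *eat-2* table. Which transcripts were summed in each is not given, so whether the per-library counts hold all RNA of *daf-16* and *daf-2* is not known. Per kilobase of the longest transcript, WT levels were 384 ± 13.6 CPM for *akt-1*, 157 ± 9.58 for *aap-1*, 28.4 ± 3.03 for *daf-2* and 17.6 ± 1.45 for *daf-16* (SD, n = 4). The order of the last pair is uncertain for the same reason.

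Of the 4 measured genes, *akt-1* and *daf-16* changed in *eat-2* mutants, in opposite directions, and neither *daf-2* nor *aap-1* passed the test. None passed it in FW1256-exposed WT, where *daf-16* was the nearest to the threshold. The kinase gene *akt-1* fell by 0.36 on the log2 scale in *eat-2* mutants, and the transcription factor gene *daf-16* rose by 0.50. For *daf-16* and *daf-2* all values describe the RNA counted per library, which may be only part of their RNA. Between FW1256-exposed WT and *eat-2* mutants, *akt-1*, *daf-2* and *aap-1* were each higher with FW1256 and *daf-16* did not pass the test.

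**Figure D1:**
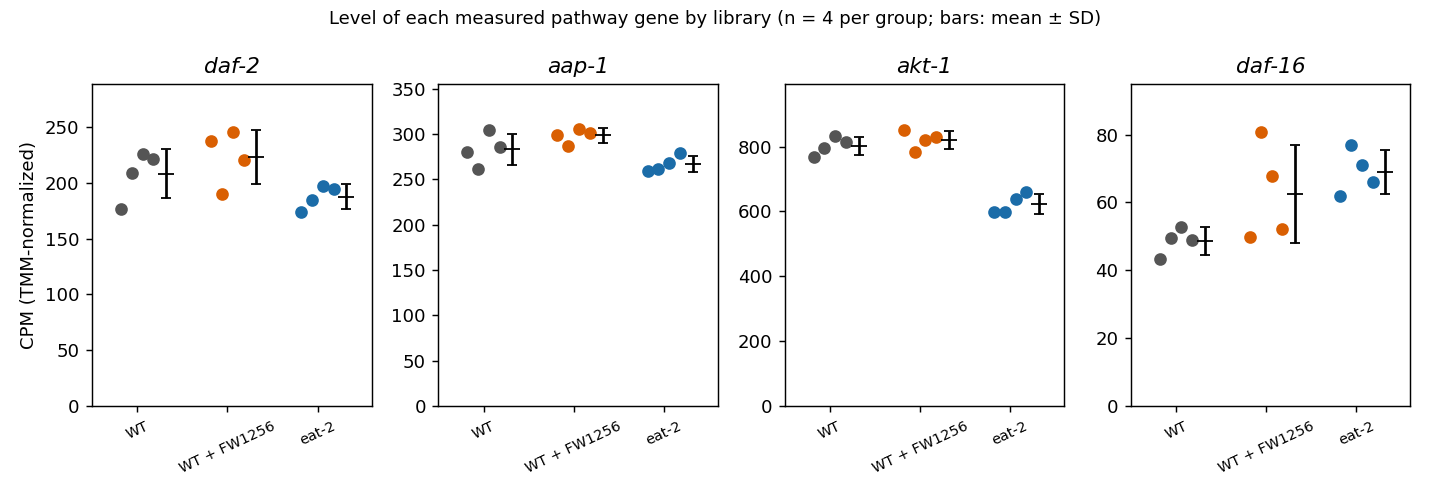
Level of each measured gene in CPM (vertical axis, from 0) in the 4 libraries of WT, FW1256-exposed WT and *eat-2* mutants; dots are libraries and the bars are the mean and SD. The *eat-2* libraries lie apart from WT for *akt-1* (all lower) and *daf-16* (all higher), and the FW1256 libraries overlap WT for every gene.

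The insulin receptor gene *daf-2* was measured at 177, 208, 226 and 222 CPM in WT, at 237, 190, 245 and 220 CPM with FW1256, and at 174, 185, 198 and 195 CPM in *eat-2* mutants. All groups overlapped, with the lowest WT library inside the *eat-2* range. Its difference from WT was 0.089 with FW1256 (95% interval -0.12 to 0.30, adjusted p = 0.446) and -0.15 in *eat-2* mutants (-0.33 to 0.027, adjusted p = 0.150). Without WT replicate 1, the lowest WT library, the *eat-2* difference was -0.22 and passed the test (adjusted p = 0.0155).

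FW1256-exposed WT had 18.9% more *daf-2* RNA than *eat-2* mutants on average, a log2 difference of 0.24 (SE 0.077, adjusted p = 0.0204), and 3 of the 4 FW1256 libraries were above every *eat-2* library. This call rested on single libraries, since the adjusted p lay between 0.0540 and 0.0555 when FW1256 replicate 1 or 3, or *eat-2* replicate 1 or 2, was left out. It was also lost when libraries were scaled by their totals alone (0.16, adjusted p = 0.106), and the direction turned under scaling to 6 reference genes (-0.095, adjusted p = 0.258).

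The PI3 kinase adaptor gene *aap-1* was measured at 281, 262, 304 and 286 CPM in WT, at 299, 287, 306 and 302 CPM with FW1256, and at 259, 262, 269 and 279 CPM in *eat-2* mutants. It was the steadiest of the measured genes in the FW1256 group, where the SD was 8.36 CPM around a mean of 298 CPM. WT overlapped both other groups, and the differences from WT were 0.064 with FW1256 (-0.041 to 0.17, adjusted p = 0.278) and -0.084 in *eat-2* mutants (-0.20 to 0.030, adjusted p = 0.205). All FW1256 libraries were above all *eat-2* libraries, by 0.14 on the log2 scale (SE 0.034, adjusted p = 0.00364), a direction that turned to -0.18 (adjusted p = 0.00243) under scaling to the reference genes, and a call lost under scaling by library totals (0.070, adjusted p = 0.191).

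AKT-1 is one of the kinases that phosphorylate DAF-16, and *akt-1* had the highest level per kilobase of the measured genes. It was measured at 767, 794, 834 and 814 CPM in WT and at 851, 784, 821 and 829 CPM with FW1256. In *eat-2* mutants the values were 598, 598, 639 and 661 CPM. The highest *eat-2* library was thus below the lowest library of either other group, and WT and FW1256 libraries were interleaved.

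In *eat-2* mutants, *akt-1* RNA was 22.2% below the WT mean, a log2 fold change of -0.36 (SE 0.048, 95% interval -0.47 to -0.26, adjusted p = 5.14e-04), which was -0.26 (adjusted p = 0.00263) under scaling to the reference genes. With FW1256 the difference from WT was 0.022, and its interval of -0.064 to 0.11 leaves out a change as large as that in *eat-2* mutants (adjusted p = 0.655), but this sign and call depended on scaling, the value being -0.036 (adjusted p = 0.468) with library totals and -0.21 (adjusted p = 0.00105) with the reference genes. Set against each other, FW1256-exposed WT had 31.6% more *akt-1* RNA than *eat-2* mutants (0.38, SE 0.042, adjusted p = 2.94e-05), a difference of 0.052 (adjusted p = 0.325) under the reference genes.

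DAF-16, the FOXO factor at the end of the pathway, activates stress and metabolic genes when insulin signalling is low. The level of *daf-16* was 43.2, 49.5, 52.9 and 49.1 CPM in WT. In *eat-2* mutants it was at 62, 77, 71.1 and 66.1 CPM, with every library above every WT library. With FW1256 it was at 49.8, 80.7, 67.7 and 52.1 CPM. Of the FW1256 libraries, replicates 2 and 3 were above all WT libraries and replicates 1 and 4 lay within the WT range.

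In the per-library counts, which may not hold all *daf-16* RNA, the *eat-2* mean of *daf-16* was 41.9% above that of WT. The log2 fold change was 0.50 (SE 0.090, 95% interval 0.30 to 0.71, adjusted p = 0.00200). The value stayed between 0.44 and 0.57, with adjusted p up to 0.00809, when each library was left out in turn. With FW1256 the difference from WT was 0.35 (SE 0.15, 95% interval 0.016 to 0.69, adjusted p = 0.0755 in edgeR). This lay close to the threshold and its call changed with the libraries and the tool. Under scaling to the reference genes the value was 0.12 (adjusted p = 0.493), and with library totals 0.29 (adjusted p = 0.126). The value was 0.45 without FW1256 replicate 1 (adjusted p = 0.0301) and 0.43 without FW1256 replicate 4 (adjusted p = 0.0478). It was 0.21 without FW1256 replicate 2 (adjusted p = 0.191), and with all libraries DESeq2 gave an adjusted p of 0.0480.

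FW1256-exposed WT and *eat-2* mutants differed in *daf-16* by -0.16 (-0.49 to 0.18, adjusted p = 0.364), an interval that holds both no difference and one as large as 0.49. Without FW1256 replicate 2 the difference was -0.30 (adjusted p = 0.0501). Under the reference genes it was -0.48 (adjusted p = 0.0157).

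**Figure D2:**
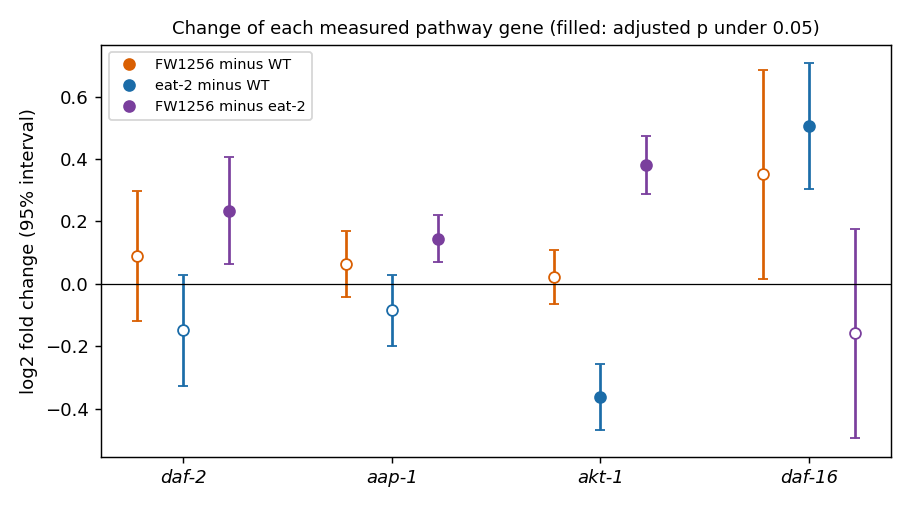
Log2 fold change of each measured gene (vertical axis) with its 95% interval in 3 comparisons, filled where the adjusted p was under 0.05 in edgeR. In *eat-2* mutants against WT, *akt-1* (-0.36) and *daf-16* (0.50) are filled and lie on opposite sides of 0, and no FW1256 against WT point is filled.

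These counts have to be read against how many genes changed overall. With FW1256, 0 of the 4 genes were called by edgeR, 1 (*daf-16*) had an unadjusted p under 0.05 and 1 was called by DESeq2, while 50.2% of 3616 tested genes were called (25.5% higher and 24.8% lower). All 4 overlapped WT there, where 48% of tested genes did not. In *eat-2* mutants 2 of the 4 were called, against 44.2% of 3786 tested genes, with 1 higher (21.8% of genes) and 1 lower (22.4% of genes), and these 2 were also the ones whose groups did not overlap (42.9% of genes). Between FW1256 and *eat-2*, 3 of the 4 were called, all higher with FW1256, where 69.3% of 3715 genes were called with 33.1% higher and 36.2% lower, and 2 of the 4 did not overlap, against 64.9% of genes. None of these shares sets the measured pathway genes apart from the rest of the table. In size, the *akt-1* fall in *eat-2* mutants exceeded 64.7% of all absolute changes in that comparison and the *daf-16* rise exceeded 75.6%.

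Scaling decided several of these directions. Under the reference genes the median change of all genes moved to -0.24 in FW1256 against WT, 0.12 in *eat-2* against WT and -0.37 in FW1256 against *eat-2*, and under library totals the last was -0.12. Relative to that median, the *akt-1* difference between FW1256 and *eat-2* was 0.43 with TMM, 0.42 with library totals and 0.42 with the reference genes. Relative to the median, *daf-16* in *eat-2* mutants was 0.48 under each of these scalings. Of the 6 reference genes themselves (*tbb-2*, *act-1*, *act-2*, *eif-3.C*, *ama-1* and *rbd-1*, genes often taken as constant), 4 were called higher with FW1256 and 3 lower in *eat-2* mutants under TMM. Genes called higher and lower numbered 922 and 895 in FW1256 against WT, 691 and 1055 with library totals, and 308 and 1784 with the reference genes. In *eat-2* mutants the numbers were 825 and 849, or 973 and 427 with the reference genes. In FW1256 against *eat-2* they were 1229 and 1346, or 1011 and 1497 with library totals and 352 and 2204 with the reference genes. Changes of single genes other than the 4 pathway genes are given under TMM only. Those near these medians in size, among them the rises of oocyte and germline genes with FW1256, may depend on the scaling.

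A ratio of genes inside a library does not depend on scaling. The log2 ratio of *daf-16* to *aap-1* was -2.54 ± 0.12 in WT, -2.28 ± 0.35 with FW1256 and -1.96 ± 0.15 in *eat-2* mutants (SD, n = 4). It was higher in *eat-2* mutants than in WT in 4 of 4 libraries, by 0.59, at the smallest p that 4 against 4 libraries allow (2-sided exact permutation test, p = 0.0286, adjusted p = 0.0857 over 3 comparisons), and this did not pass the correction. FW1256 differed from WT by 0.26 (exact p = 0.286, adjusted p = 0.286) and from *eat-2* by -0.32 (exact p = 0.143, adjusted p = 0.214). The ratio of *akt-1* to *aap-1*, chosen after the values had been seen, was lower in *eat-2* mutants than in WT by 0.28, a difference of -0.28 (exact p = 0.0286, adjusted p = 0.0857 over 6 comparisons), and higher with FW1256 than in *eat-2* mutants by 0.24 (exact p = 0.0286, adjusted p = 0.0857).

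The genes whose log2 CPM followed *akt-1* most closely over the 12 libraries, among 1860 genes with a symbol and a mean of at least 100 counts, were *egg-2* (Pearson r = 0.997), *bli-4* (0.992) and *oma-2* (0.991). These are descriptions over libraries that fall into groups, share depth and scaling, and were picked as the highest of many. EGG-2 is an oocyte surface protein needed for fertilization, OMA-2 a zinc finger protein of maturing oocytes and BLI-4 a proprotein convertase. The mean of *oma-2* was 2573 ± 157 CPM in WT, 2652 ± 41.5 with FW1256 and 1846 ± 133 in *eat-2* mutants (SD, n = 4).

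Oocyte and germline genes as groups were low in the libraries where *akt-1* was low. Of 11 tested oocyte and early embryo genes, 10 were called lower in *eat-2* mutants and none higher (median log2 fold change -0.41, against 0.024 over all tested genes, of which 22.4% were called lower). Their summed level was between 10670 and 11420 CPM in *eat-2* mutants and between 13670 and 15650 CPM in WT. With FW1256 it was between 15310 and 15840 CPM, with 4 of the 11 genes called higher and 1 lower, where 25.5% and 24.8% of all tested genes were. The largest *eat-2* fall among them was in the eggshell gene *cpg-3* (-0.55, adjusted p = 8.32e-04), and with FW1256 the yolk receptor gene *rme-2* rose most (0.30, adjusted p = 0.00104) and *skr-1* fell (-0.20, adjusted p = 6.67e-04). Of 7 germline genes, 6 were called lower in *eat-2* mutants (22.4% of all tested genes) and 4 higher with FW1256 (25.5% of all), and their summed level was 5733 to 6084 CPM in *eat-2* mutants, 6793 to 7594 CPM in WT and 8540 to 8793 CPM with FW1256. The Nanos homologue *nos-3* fell most in *eat-2* mutants (-0.37, adjusted p = 0.00162) and the germ granule helicase gene *glh-4* rose most with FW1256 (0.34, adjusted p = 0.00153). No gene of either list was at 0.

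Inside each library, the log2 ratio of *akt-1* to the mean of the 11 oocyte genes was -0.43 ± 0.043 in WT, -0.47 ± 0.048 with FW1256 and -0.39 ± 0.046 in *eat-2* mutants (SD, n = 4). The 11 genes include *egg-2* and *oma-2*, named above as following *akt-1* most closely, so this ratio and those correlations are not separate observations. The *eat-2* minus WT difference in this ratio, a measure chosen after the data had been seen, was 0.036 (exact permutation p = 0.229, adjusted p = 0.343), where *akt-1* alone differed by -0.36. FW1256 minus *eat-2* was -0.077 (exact p = 0.0857, adjusted p = 0.257) and FW1256 minus WT was -0.042 (exact p = 0.343, adjusted p = 0.343). Against the germline genes the sign turned in *eat-2* minus WT, to -0.22 with all 7 (exact p = 0.0286, adjusted p = 0.0857) and -0.069 with the 6 of at least 100 CPM, which leaves out *deps-1* (exact p = 0.114, adjusted p = 0.114). In FW1256 minus *eat-2* it was 0.091 with all 7 (exact p = 0.0571, adjusted p = 0.0857) and -0.15 with those 6 (exact p = 0.0286, adjusted p = 0.0429), and in FW1256 minus WT these 6 gave -0.21 (exact p = 0.0286, adjusted p = 0.0429) and all 7 gave -0.13 (exact p = 0.2, adjusted p = 0.2). The gene *deps-1* had means of 5.76 CPM in WT, 3.89 CPM with FW1256 and 8.53 CPM in *eat-2* mutants. It was lower with FW1256 than in *eat-2* mutants (-1.14, adjusted p = 0.0029), where the other 6 germline genes were called higher. The part of oocyte and germline RNA in the *akt-1* difference was not tested.

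**Figure D3:**
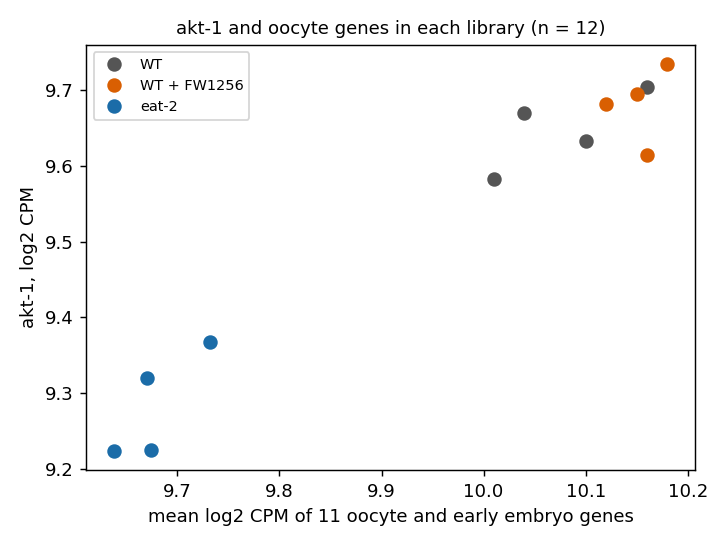
Log2 CPM of *akt-1* (vertical axis) against the mean log2 CPM of 11 oocyte and early embryo genes (horizontal axis) in each of the 12 libraries, coloured by group. The 4 *eat-2* libraries lie low on both axes, and the WT and FW1256 libraries lie together at the other end.

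For *aap-1* the closest genes were *pdr-1* (r = 0.954), *mog-1* (0.951) and *sfa-1* (0.938), of which *mog-1* and *sfa-1* encode RNA splicing factors and *pdr-1* the homologue of parkin. For *daf-2* they were *wnk-1* (0.934), *rsd-2* (0.907) and *zfp-1* (0.883). For *daf-16* they were *nep-21* (0.897), *rgs-4* (0.869) and *gsa-1* (0.861), the last a G protein alpha subunit. These values are lower than those of *akt-1* and, for *daf-16*, come from genes with means of 9.13 to 30.8 CPM in all groups.

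Upstream of the receptor, 4 of 40 listed insulin-like peptide genes were in the per-library tables, and 2 of these had enough counts to be tested, *ins-17* and *ins-18*. The RNA of *ins-17* was at 29.1 ± 3.20 CPM in WT, fell with FW1256 to 20.4 ± 1.14 CPM (-0.52, adjusted p = 0.00196) and rose in *eat-2* mutants to 45.3 ± 3.46 CPM (0.64, adjusted p = 9.98e-04). FW1256 and *eat-2* therefore differed in *ins-17* by -1.16 (SE 0.077, adjusted p = 1.47e-06), a wider gap than for any of the 4 pathway genes. The RNA of *ins-18*, which encodes a peptide reported to oppose DAF-2 signalling, rose in *eat-2* mutants (0.67, adjusted p = 0.0266) from 4.36 ± 0.64 to 6.96 ± 1.78 CPM, and with FW1256 the change was 0.20 (adjusted p = 0.493). Both neuron markers also rose in *eat-2* mutants (*unc-64* by 0.52 and *egl-21* by 0.56), where their summed level was 148 to 166 CPM against 100 to 108 CPM in WT, and many insulin-like peptides are made in neurons. With FW1256, where *ins-17* fell, *egl-21* rose by 0.30 (adjusted p = 0.00336) and *unc-64* was at -0.11 (adjusted p = 0.603). The summed level of both markers there was 119 to 134 CPM. The part of neuronal RNA in the *ins-17* and *ins-18* changes was not tested.

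Around DAF-16, 14 genes for regulators and partners were tested. With FW1256, 1 rose and 5 fell (median -0.0091, against -0.0029 over all genes), and in *eat-2* mutants 1 rose and 3 fell (median -0.019, against 0.024). The 6 and 4 of 14 genes called compare with 50.2% and 44.2% of all tested genes. The gene for PQM-1, a zinc finger factor that binds near many DAF-16-responsive genes, fell with FW1256 from 76.8 ± 13.6 to 39.2 ± 3.19 CPM (-0.98, adjusted p = 2.10e-04) and rose in *eat-2* mutants to 112 ± 8.45 CPM (0.54, adjusted p = 0.00490). The only riser with FW1256 was *mdt-15*, a Mediator subunit gene (0.32, adjusted p = 2.23e-04), and the largest fall in *eat-2* mutants was in *eak-7* (-0.32, adjusted p = 5.73e-04), whose product acts in parallel to AKT-1 to restrain DAF-16. Between FW1256 and *eat-2*, 6 of the 14 were called higher and 5 lower, where 69.3% of all genes were called, and *pqm-1* differed by -1.53 (adjusted p = 4.20e-07).

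Among 5 other longevity transcription factor genes, *atfs-1*, which governs the mitochondrial unfolded protein response, rose with FW1256 (0.21, adjusted p = 0.00182) and fell in *eat-2* mutants (-0.28, adjusted p = 8.02e-04). This rise is given under TMM. Under the reference genes the median change of all genes in FW1256 against WT was -0.24, and the value of *atfs-1* there is not given here. The TFEB homologue *hlh-30* (-0.23, adjusted p = 0.0414) and the lipid regulator *nhr-49* (-0.20, adjusted p = 0.00902) fell with FW1256, and the values in *eat-2* mutants were 0.13 and -0.052 with adjusted p of 0.223 and 0.464. The genes *skn-1* and *nhr-62* passed the test in neither comparison with WT, at -0.036 and -1.79 with FW1256 and -0.11 and 0.14 in *eat-2* mutants. Of these 5 genes, 3 were called with FW1256 and 1 in *eat-2* mutants, against 50.2% and 44.2% of all tested genes.

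Of 19 listed genes of TOR and AMPK signalling, 4 were tested (*aak-1*, *aak-2*, *aakb-1* and *flcn-1*), and none of these encodes the TOR kinase. The AMPK subunit genes *aak-2* (-0.35, adjusted p = 0.0121) and *aakb-1* (-0.35, adjusted p = 0.00526) fell with FW1256, and *aak-2* is also counted among the DAF-16 regulators above. In *eat-2* mutants the other catalytic AMPK subunit gene, *aak-1*, fell (-0.25, adjusted p = 0.0125). The folliculin homologue *flcn-1* was at -0.28 and -0.21 (adjusted p = 0.0891 and 0.181). Of 6 other phosphoinositide enzyme genes, only Y75B8A.24 passed the test with FW1256 (0.51, adjusted p = 1.86e-04), and in *eat-2* mutants the myotubularin gene *mtm-3* rose (0.27, adjusted p = 0.0188) and the inositol phosphatase gene *ocrl-1* fell (-0.31, adjusted p = 0.0347). The class III PI3 kinase gene *vps-34* was at 0.084 and 0.13 (adjusted p = 0.464 and 0.232), and neither *mtm-6* (0.36 and 0.63) nor the synaptojanin gene *unc-26* (0.63 and 0.054) passed the test against WT. With FW1256, the 2 of 4 and 1 of 6 genes called on these lists compare with 50.2% of all tested genes. In *eat-2* mutants 1 of 4 and 2 of 6 were called, against 44.2% of all tested genes.

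Of 46 listed genes known to be activated by DAF-16, 13 were in the per-library tables, and all 13 were tested. Only these 13 genes stand for the output of the pathway here. Whether their changes came through DAF-16 or through other regulators was not tested. With FW1256, 4 rose and 7 fell (median -0.51, against -0.0029 over all genes, of which 25.5% rose and 24.8% fell). In *eat-2* mutants 5 rose and 3 fell (median 0.056, against 0.024 over all genes, of which 21.8% rose and 22.4% fell). The *daf-16* change itself was 0.35 with FW1256 and 0.50 in *eat-2* mutants. Both comparisons share the WT libraries, so their values are only set side by side.

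**Figure D4:**
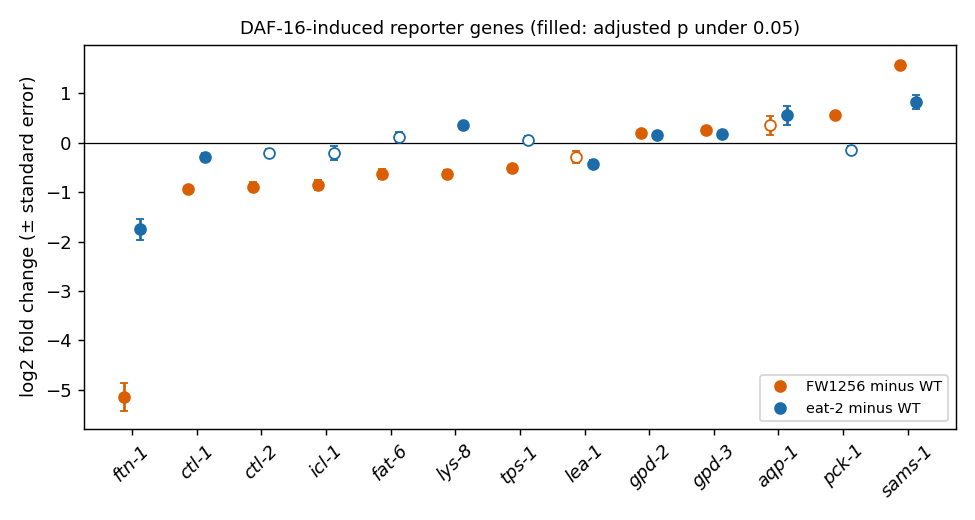
Log2 fold change (vertical axis, with its standard error) of 13 DAF-16-induced genes with FW1256 and in *eat-2* mutants, each against WT, filled where the adjusted p was under 0.05. The ferritin gene *ftn-1* is the lowest in both (-5.14 and -1.75) and *sams-1* the highest in both (1.57 and 0.82).

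The largest fall in both comparisons was in *ftn-1*, a ferritin gene, which was at 54.5 ± 14.6 CPM in WT, 1.56 ± 0.57 CPM with FW1256 (-5.14, SE 0.29, adjusted p = 2.33e-06) and 16 ± 2.18 CPM in *eat-2* mutants (-1.75, SE 0.20, adjusted p = 3.42e-04). The largest rise was in *sams-1*, the S-adenosylmethionine synthetase gene, from 108 ± 6.38 CPM in WT to 322 ± 24.3 CPM with FW1256 (1.57, adjusted p = 4.68e-07) and 190 ± 43.7 CPM in *eat-2* mutants (0.82, adjusted p = 0.00161). The catalase genes *ctl-1* and *ctl-2* were at -0.93 and -0.89 with FW1256 (adjusted p = 7.99e-06 and 4.20e-05) and at -0.29 and -0.21 in *eat-2* mutants (adjusted p = 0.0119 and 0.0763). The lysozyme gene *lys-8* fell with FW1256 (-0.63, adjusted p = 2.10e-04) and rose in *eat-2* mutants (0.36, adjusted p = 0.00337). Of 21 listed genes known to be repressed by DAF-16, 1 was tested, the yolk protein gene *vit-2*, at 0.0049 with FW1256 (adjusted p = 0.95) and 0.24 in *eat-2* mutants (adjusted p = 0.00873).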

How the data were processed

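RNAseq of 12 whole-nematode samples (4 per group) was analysed. Estimated counts per gene had been deposited by the authors, made with kallisto 0.46.0 on WBcel235 and tximport (length-scaled TPM), with no scaling between libraries. They were rounded. Of the authors' comparison tables only the mean normalised count (signal over pooled libraries) was used, and their log2 fold changes and p-values were not. Tests were edgeR 4.0.16 in R 4.3.3 (filterByExpr, TMM, glmQLFTest) per pair of groups, with Benjamini-Hochberg adjustment over all tested genes. Intervals are at 95%. Log2 CPM had a prior count of 2. CPM relate to the genes of the tables, not to full depth. Positions and overlaps came from Ensembl release 115. DESeq2 1.42.0, other scalings, filters, one fit over 3 groups, a replicate block and each library left out in turn were alternatives. Within-library ratios used exact permutation tests.

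The pathway genes and all gene lists were chosen with earlier results of these data known. Named genes were the measured pathway genes, the 3 genes most alike to each, genes overlapping them, and of each list the largest called rise and fall against WT, with all members of lists of 6 or fewer. The genes *ctl-1*, *ctl-2*, *lys-8* and *deps-1* were named after their values were seen. Tests were checked on simulated data. No sequences are shown.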

Additional observations from a re-analysis of the deposited data

How the results depend on the processing

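With the reference genes, FW1256 minus WT became -0.17 for *aap-1*, -0.14 for *daf-2*, -0.21 for *akt-1* and 0.12 for *daf-16*, *eat-2* minus WT became 0.017 for *aap-1*, and FW1256 minus *eat-2* became -0.18 for *aap-1*, -0.48 for *daf-16*, -0.095 for *daf-2* and 0.052 for *akt-1*. With library totals, *akt-1* became -0.036 in FW1256 minus WT, and FW1256 minus *eat-2* became 0.07 for *aap-1* and 0.16 for *daf-2*. With a mean CPM of at least 10, these values were -0.021, 0.056 and 0.15. For *daf-16* in FW1256 minus WT, DESeq2 gave 0.35 and 1 fit over the groups gave 0.36, both past the threshold. The cause of these changes was not tested, apart from the shift of all genes given with the scalings. Under the other alternatives that kept all libraries, each pathway gene kept its direction and its side of the threshold, except under the replicate block.

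Whether replicate numbers pair the samples could not be settled, and the main tests took the libraries as unpaired. Same-numbered libraries of different groups correlated at -0.040 to 0.238, and differently numbered ones at -0.222 to 0.185. With the replicate number as a block, *daf-16* was 0.33 in FW1256 minus WT (adjusted p = 0.0491) and *daf-2* was -0.15 in *eat-2* minus WT (adjusted p = 0.0311). The block called 1767 genes in FW1256 minus WT, 1821 in *eat-2* minus WT and 2593 in FW1256 minus *eat-2*, and changed no other call of a pathway gene. The SE of *daf-16* in FW1256 minus *eat-2* was 0.15 without the block and 0.084 with it, where the difference was -0.18 (adjusted p = 0.0948).

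Leaving out each library gave ranges of 0.21 to 0.45 for *daf-16* in FW1256 minus WT, -0.22 to -0.10 for *daf-2* in *eat-2* minus WT, and 0.19 to 0.31 for *daf-2* in FW1256 minus *eat-2*. The *daf-16* to *aap-1* ratio in FW1256 minus *eat-2* ranged from -0.48 (without FW1256 replicate 2, adjusted p = 0.0429) to -0.22. With the germline genes in place of the oocyte genes, the *akt-1* ratio was -0.22 (all) or -0.069 (at least 100 CPM) in *eat-2* minus WT, and 0.091 with all of them in FW1256 minus *eat-2*. Depth did not limit the pathway genes, which had at least 775 estimated counts in every library. Other named genes, among them *nhr-62*, *unc-26*, *rol-6*, *bli-1*, *deps-1* and *ins-18*, had means of a few CPM.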

Other observations

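Both body wall muscle markers were higher than WT in both other groups. The myosin heavy chain gene *unc-54* rose by 1.06 with FW1256 and by 0.57 in *eat-2* mutants, and the paramyosin gene *unc-15* rose by 1.10 and 0.55 (adjusted p of 9.97e-04 or less). Their summed level was 837 to 957 CPM in WT, 1758 to 1977 CPM with FW1256 and 1165 to 1510 CPM in *eat-2* mutants. Of 32 listed sperm genes only 1, *fer-1*, was in the per-library tables, so it does not stand for sperm RNA as a whole. It fell with FW1256 from 11.4 ± 1.28 to 3.70 ± 1.63 CPM (-1.63, adjusted p = 0.00258). In *eat-2* mutants *fer-1* was at -0.41 (adjusted p = 0.699), with libraries spread from 0.58 to 16.9 CPM. The hypodermal collagen genes *rol-6* and *bli-1* passed the test in neither comparison with WT (-1.05 and -1.08 with FW1256, 0.15 and 0.47 in *eat-2* mutants).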
